A study of Rattus norvegicus with 6 samples.

Results

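Genes of pre-mRNA splicing were followed in AR42J cells, a line from a rat exocrine pancreas tumour that serves as a model of acinar cells, with and without the synthetic glucocorticoid dexamethasone. The set was defined by gene symbol, with earlier results of these data known. It took in SF3A and SF3B subunits, SR proteins, hnRNP proteins, Sm, LSm and other snRNP proteins, U2AF subunits and Prp proteins. It held 65 of the 10411 genes that the Affymetrix Rat 230A array measured under a single symbol, each represented by its brightest probe set. Control cultures (n = 3) had no dexamethasone and treated cultures (n = 3) had 100 nM for 48 h. Both groups were thawed at passage 29, plated for 24 h in 20% serum and then held in 5% serum, and the experiment was run 3 times over 5 months. A single tumour-derived line at a single dose and time limits the model. The cultures were prepared as 3 independent pairs, all from frozen stocks of the same line, so p-values measure the spread between these cultures.

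Introns are removed by the spliceosome, in which small nuclear RNAs sit in rings of Sm or LSm proteins and carry further proteins of the U1, U2, U4, U5 and U6 particles. The U1 particle recognises the start of an intron and the U2 particle, with U2AF, its end, after which the U4/U6.U5 tri-snRNP joins and the catalytic centre forms. SR proteins and hnRNP proteins bind the transcript itself and decide, often in opposition, which exons are used. Pancreatic acinar cells make very large amounts of a few secreted enzymes, whose mRNAs pass through this machinery.

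Dexamethasone lowered the mRNA of most of these genes and raised none past the test. Of 63 genes bright enough to test, 38 fell, 0 rose and 25 did not pass (limma, Benjamini-Hochberg adjusted p of 0.05 over all probe sets), so 60.3% fell. Among all 7051 genes tested, 21.4% fell, 17.0% rose and 38.4% changed in either direction. At an unadjusted p of 0.05, 42 splicing genes were lower and 0 higher. The median log2 change was -0.53 over the 63 genes and -0.04 over all genes, and 90.5% of the 63 against 53.3% of all genes had a fitted change below 0. A fall of at least 2-fold was seen in 10 of the 63 genes, or 15.9%, against 6.58% of all genes. All 3 treated arrays lay below all 3 control arrays for 44 of the 63, against 28.1% of all genes. The median change was -0.64, -0.52 and -0.48 in replicate pairs 1, 2 and 3.

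**Figure D1:**
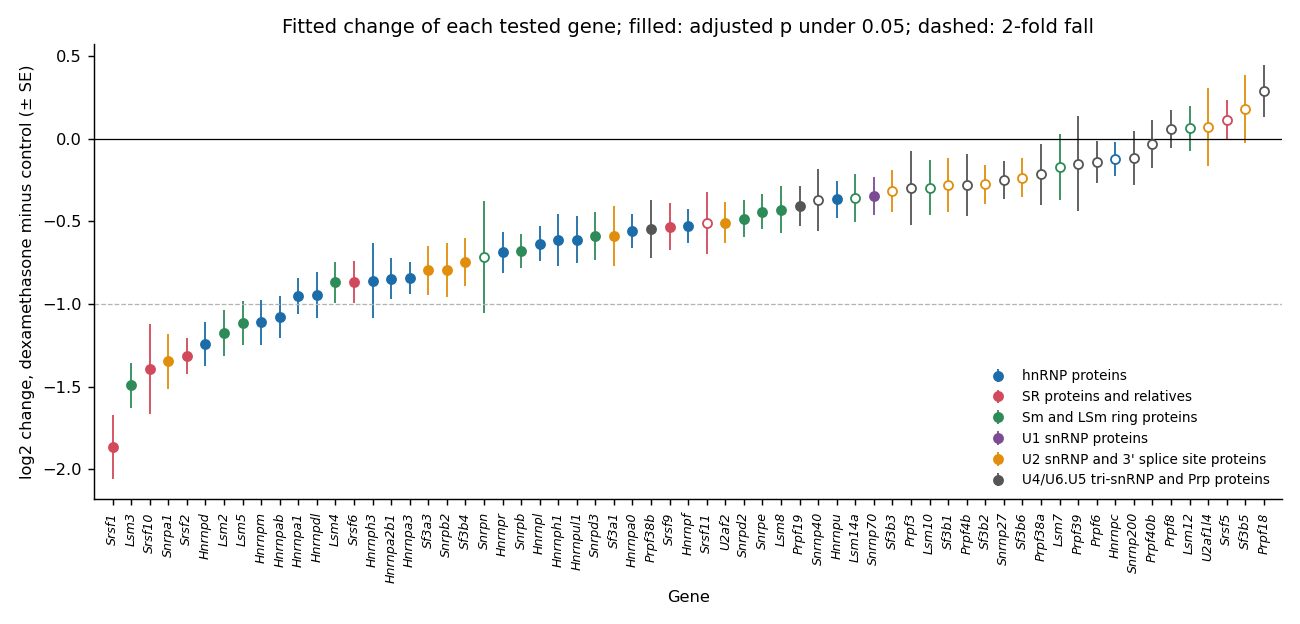
Fitted log2 change (dexamethasone minus control, ± SE from limma) of the 63 tested splicing genes, ordered by change and coloured by class. Filled points passed an adjusted p of 0.05, and all 38 of them lie below 0, from Srsf1 at -1.86 to Snrnp70 at -0.35.

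**Figure D2:**
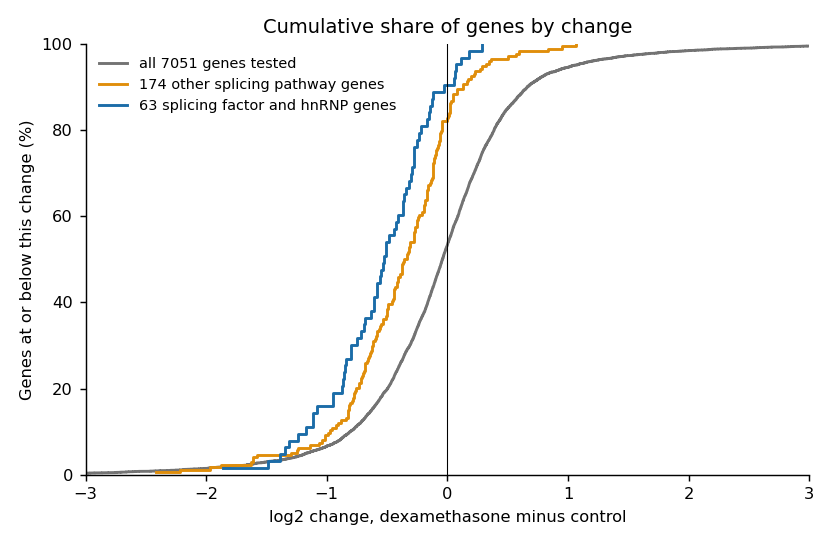
Cumulative share of genes (y, percent) at or below a given log2 change (x) for the 63 splicing genes, 174 other genes of the pathway and all 7051 genes tested. The axis is drawn from -3 to 3, and a few genes lie beyond it. From about -1 upward the curve of the 63 genes lies to the left of that of all genes, with a median of -0.53 against -0.35 for the other pathway genes and -0.04 for all genes.

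Signals are MAS5 values relative to each array's own total, so a change in RNA per cell would not be seen, and in these bulk cultures fewer cells of a kind and less RNA per cell cannot be told apart. The direction of array-wide change depended on scaling: 55.8% of changed genes fell with the deposited scaling, 41.4% with centring on the 75th percentile and 79.6% with scaling to the hybridization controls. In those settings 38, 31 and 48 splicing genes fell and 0 rose, while the median of all genes was -0.04, 0.08 and -0.29 and that of the splicing genes stayed 0.49 below it, as any uniform shift must leave it. Acinar identity was seen in all 11 acinar markers, which were above background on every array. They summed to 80989 to 95964 in controls and 117120 to 131050 with dexamethasone. Prss1 (mean 726.1 to 15481) and Cela2a (4450 to 15484) rose most in signal, and Ctrb1, Amy2a3, Ptf1a, Bhlha15 and Pnlip also rose. Cel, Cela1 and Cpa1 did not pass, Cpa1 being lower (19715.5 to 17049.5), and Cpb1 was too dim to test. The sum of 2 duct markers on the array was 2710 to 3797 in controls and 573.3 to 1950 in treated cultures, and that of 5 hepatocyte markers 1105 to 3374 and 3489 to 22022. Of the latter 3, Ttr, Apoa1 and Serpina1, were above background on all arrays and made up most of the sum, while Alb and Fgb had signals of at most 155.3. Of 5 stromal markers 4 were above background on all arrays (sums 821.6 to 974.4 and 863.2 to 1048), of 4 endothelial markers 1 (220.0 to 317.2 and 344.3 to 478.9), and of 5 immune markers 0 (229.0 to 377.3 and 299.0 to 524.1). The ratio of 3′ to 5′ signal for beta-actin, a sign of RNA integrity, was 1.27 to 1.5 in controls and 1.19 to 1.69 in treated arrays. Mki67, the gene of a proliferation marker, had signals of 1642, 1204 and 1236 in controls and 82.6, 146.1 and 58.9 with dexamethasone. The part of these marker changes in the fall of splicing genes was not tested.

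SR proteins, which carry an RNA recognition motif and a domain rich in arginine and serine and mostly promote the use of exons, held the largest fall among the tested genes. Of 7 tested, 5 fell (71.4%, against 21.4% of all genes) and 2 did not pass. Srsf1, the founding SR protein (also called SF2 or ASF), had signals of 2265, 1853 and 2383 in controls and 403.3, 623.6 and 825.1 in treated cultures. The groups were far apart, treated array 1 being the lowest, and the fall was 3.64-fold (log2 change -1.86 ± 0.19, adjusted p = 0.000128). Srsf2 (SC35), a marker of nuclear speckles, had 4120, 4349 and 4532 in controls and 1507, 1808 and 1944 with dexamethasone, a 2.48-fold fall (-1.31 ± 0.11, adjusted p = 3.7e-05). Each has another probe set on the array, and these fell as well, by 1.72 ± 0.15 for Srsf1 and by 1.96 ± 0.13 for Srsf2. Srsf10, an SR protein active as a splicing repressor when dephosphorylated, was dimmer, at 396.4, 288.0 and 261.5 against 87.7, 160.4 and 117.7. It fell by 1.39 ± 0.27 (adjusted p = 0.00436), with 2 of 3 treated arrays above background. Its other probe sets were too dim to test. On another probe set controls had 92.1, 100.4 and 133.3 and treated cultures 20.3, 55.9 and 53.0, all treated values below background. On a further probe set the groups overlapped, at 77.6, 73.6 and 58.1 against 43.0, 113.9 and 68.7. Srsf6 fell by 0.87 ± 0.13 and Srsf9 by 0.53 ± 0.14, the latter a call lost without replicate 2 or 3 and with 75th percentile centring.

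Srsf5 (SRp40 or HRS), first described as an insulin-induced gene of liver cells, was the SR gene that stood on the other side of 0. Its signals were 1582, 1510 and 1666 in controls and 1574, 1586 and 2025 with dexamethasone. The groups overlapped, and the change of 0.11 ± 0.12 (95% interval -0.16 to 0.39, adjusted p = 0.498) did not pass. Srsf11 did not pass either (-0.51 ± 0.19, adjusted p = 0.0606), although its groups did not overlap, and it was past the threshold and lower without the replicate block, without replicate 2 or 3, without dexamethasone replicate 3 and with hybridization control scaling.

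**Figure D3:**
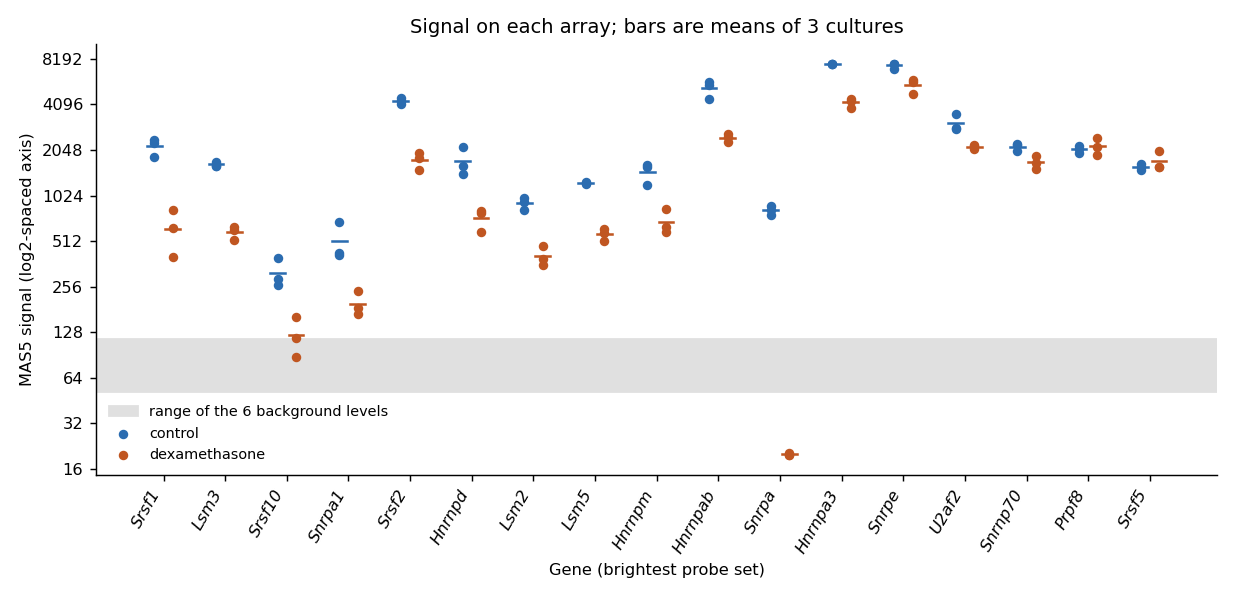
MAS5 signal (log2-spaced axis) on each of the 6 arrays for the 10 largest falls, Snrpa, the brightest tested gene of each class and Srsf5. Points are cultures, bars are means of 3, and the grey band spans the background levels from 51.7 to 115.9. Snrpa lies below the band on all 3 treated arrays, and Prpf8 and Srsf5 overlap between groups.

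The upstream sequences of Srsf1 and Srsf2, SR genes that fell at least 2-fold on each of their probe sets, are shown with that of Srsf5 for comparison. Srsf10, whose fitted fall on its brightest probe set was larger than that of Srsf2, is not shown. They are the 250 bases before the annotated RefSeq start, on the strand of the gene in rat build GRCr8: chr10:73336248-73336497 for Srsf1 (+ strand), chr10:102554142-102554391 for Srsf2 (- strand) and chr6:106336506-106336755 for Srsf5 (+ strand). Capitals mark CCAAT (the CCAAT box), CCGGAAG (a core bound by ETS factors) and AGAACA (the half-site of the glucocorticoid response element), each on either strand.
Srsf1: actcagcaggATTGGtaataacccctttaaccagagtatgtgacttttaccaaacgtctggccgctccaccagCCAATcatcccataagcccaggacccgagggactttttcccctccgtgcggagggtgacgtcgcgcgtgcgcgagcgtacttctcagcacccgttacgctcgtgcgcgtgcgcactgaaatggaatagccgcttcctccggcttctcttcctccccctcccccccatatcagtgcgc
Srsf2: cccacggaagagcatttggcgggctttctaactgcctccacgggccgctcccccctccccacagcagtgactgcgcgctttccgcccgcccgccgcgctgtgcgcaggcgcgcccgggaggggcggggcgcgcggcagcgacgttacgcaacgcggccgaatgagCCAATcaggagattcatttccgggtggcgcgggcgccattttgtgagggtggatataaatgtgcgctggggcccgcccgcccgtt
Srsf5: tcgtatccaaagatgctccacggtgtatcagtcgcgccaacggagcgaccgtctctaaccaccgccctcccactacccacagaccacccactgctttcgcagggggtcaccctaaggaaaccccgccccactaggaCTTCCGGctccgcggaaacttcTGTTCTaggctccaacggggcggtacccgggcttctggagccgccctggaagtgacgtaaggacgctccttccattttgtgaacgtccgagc
Srsf1 had 2 CCAAT matches and Srsf2 had 1, and neither had the other marked motifs. Srsf5 had 0 CCAAT matches, 1 CCGGAAG and 1 AGAACA. A match describes these letters and is no evidence of binding.

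LSm proteins form the ring of the U6 particle, and 5 of 6 tested genes of the LSm2 to LSm8 series fell. This was 83.3%, against 21.4% of all genes. Lsm3 had signals of 1716, 1610 and 1612 in controls and 517.7, 605.8 and 639.1 with dexamethasone. Both groups were tight and far apart, and the fall was 2.81-fold (-1.49 ± 0.14, adjusted p = 6.6e-05). Lsm2 had 991.8, 928.7 and 823.4 against 472.7, 391.4 and 355.7 (-1.18 ± 0.14, adjusted p = 0.000271). Lsm5 had 1213, 1237 and 1255 against 616.5, 582.4 and 516.3 (-1.11 ± 0.14, adjusted p = 0.000318). In both genes every treated array lay below every control. Lsm4 fell by 0.87 ± 0.12 and Lsm8, the subunit that keeps the ring on U6 in the nucleus, by 0.43 ± 0.14, a call lost in 6 alternatives, among them the fits without replicate 2, without replicate 3 and without dexamethasone replicate 3. Lsm7 did not pass (-0.17 ± 0.20, 95% interval -0.62 to 0.28), but was past the threshold and lower without replicate 1. Of the LSm proteins outside this ring, 0 of 3 tested passed. Lsm10, of the U7 particle for histone mRNA ends, was at -0.30 ± 0.17, Lsm14a, of cytoplasmic mRNA granules, at -0.36 ± 0.15 and Lsm12 at 0.06 ± 0.14. Limma gave 1 of these 3 as lower at an unadjusted p of 0.05, hybridization control scaling made Lsm10 and Lsm14a pass as lower, and whether the 3 differ from the ring was not tested. Lsm11 was too dim to enter the test (158.9 ± 13.3 and 136.7 ± 25.2, SD, n = 3).

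Sm proteins, which form the shared ring of the U1, U2, U4 and U5 particles, gave 4 fallers among 5 tested, with changes between -0.68 and -0.44. This was 80%, against 21.4% of all genes. Snrpe, the brightest of the class, had 7562, 7630 and 7079 in controls and 4772, 5962 and 5739 with dexamethasone. The groups did not overlap and the fall was 1.36-fold (-0.44 ± 0.11, adjusted p = 0.0113), a call lost without replicate 1 and without the intensity trend. Snrpb, which encodes SmB, went from 4741 ± 99 to 2961 ± 240 (-0.68 ± 0.10, adjusted p = 0.00107). Snrpd3 (-0.59 ± 0.14) and Snrpd2 (-0.48 ± 0.11) also fell, with calls lost without replicate 3 in both, without replicate 2 for Snrpd3 and without dexamethasone replicate 3 for Snrpd2. Snrpn, an imprinted gene for a tissue-restricted form of SmB, was dim and scattered (320.5, 228.7 and 186.2 against 87.9, 209.4 and 167.5) and did not pass (-0.72 ± 0.34, adjusted p = 0.130), except without replicate 3, where it was lower. Its change was -0.14 without replicate 1.

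Snrpa, the gene of this set whose signal dropped most, was not among the 63 tested. It encodes the A protein of the U1 particle, which binds a stem-loop of the U1 RNA. Its signals were 868.1, 765.1 and 819.1 in controls and 20.2, 19.7 and 19.8 with dexamethasone, where the background levels were 100.2, 83.7 and 115.9. It was therefore not above background on any treated array. Its mean over the 6 arrays, equal to a signal of 127.5, lay under the filter at 147.6, and this kept it out of the count of 38. Set against the background level, the treated signal was at least 8.24-fold lower. This bound was not itself tested. The fit with no filter, in which 13.7% of 10411 genes fell, used the treated signals as measured and gave a limma adjusted p of 3.8e-05. It has a single probe set, so no other measurement of it was at hand, and whether the drop was one of the whole mRNA or of the part these probes cover was not tested. Among 3360 genes left out by the filter, 7 had a control signal of at least 500. U1-associated factors with Prp symbols were counted with the tri-snRNP class. The other gene of the U1 class was Snrnp70, which encodes the U1-70K protein. Its signals were 2241, 2014 and 2202 against 1884, 1531 and 1677 (-0.35 ± 0.11, adjusted p = 0.0407). That call was lost without any of the 3 replicate pairs, without dexamethasone replicate 3, with 75th percentile centring, with no filter and with no intensity trend.

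Of 12 genes for the U2 particle and the recognition of the intron's end, 6 fell (50%, against 21.4% of all genes) and 6 did not pass. Snrpa1, which encodes the A′ protein of the U2 particle, had 416.6, 683.9 and 429.2 in controls and 168.9, 239.4 and 184.3 with dexamethasone. Array 2 was the highest of each group, the groups did not overlap, and the fall was 2.54-fold (-1.35 ± 0.17, adjusted p = 0.000347). Snrpb2, the gene of its partner B″, fell by 0.80 ± 0.16 (adjusted p = 0.00567). U2af2, the large subunit of U2AF that binds the pyrimidine tract, had 2839, 2845 and 3549 against 2163, 2209 and 2090 (-0.51 ± 0.12, adjusted p = 0.0116), a call lost without replicate 3. U2af1l4, a paralog of the small subunit, did not pass (0.07 ± 0.24, 95% interval -0.47 to 0.60).

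The upstream 250 bases of the U1 and U2 genes with the steepest falls are given with the same marks: chr1:91618043-91618292 (- strand) for Snrpa and chr1:129051800-129052049 (+ strand) for Snrpa1, build GRCr8.
Snrpa: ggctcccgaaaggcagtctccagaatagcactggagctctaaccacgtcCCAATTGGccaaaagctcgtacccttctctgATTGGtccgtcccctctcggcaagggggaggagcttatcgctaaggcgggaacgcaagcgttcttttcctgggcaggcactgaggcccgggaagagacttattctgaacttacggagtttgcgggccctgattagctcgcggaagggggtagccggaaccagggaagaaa
Snrpa1: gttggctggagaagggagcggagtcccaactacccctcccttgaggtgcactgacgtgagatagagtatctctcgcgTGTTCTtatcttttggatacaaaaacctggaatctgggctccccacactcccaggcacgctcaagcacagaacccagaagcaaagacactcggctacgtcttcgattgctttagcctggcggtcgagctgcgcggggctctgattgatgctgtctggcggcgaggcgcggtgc
Snrpa had 3 CCAAT matches, of which 2 overlap on opposite strands, and 0 of the other marked motifs. Snrpa1 had 1 AGAACA match and 0 of the other marked motifs.

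SF3A and SF3B, which anchor U2 to the branch point, gave 3 fallers of 8 among the genes matched by symbol. This was 37.5%, against 21.4% of all genes. Phf5a, an SF3B subunit counted with the other spliceosome components, fell by 0.58 ± 0.16 (limma adjusted p = 0.0186). Sf3a3 went from 748.2 ± 22.1 to 434.2 ± 70.2 (-0.80 ± 0.15, adjusted p = 0.00328) and Sf3b4 from 1986 ± 283 to 1183 ± 149 (-0.75 ± 0.15, adjusted p = 0.00451). Sf3a1 fell by 0.59 ± 0.18 (adjusted p = 0.0317), but a dimmer probe set of this gene stood at 0.12 ± 0.28 (adjusted p = 0.772), and the call was lost in 6 alternatives, among them the mean of its probe sets and the fits without replicate 2 or 3. Sf3b1, the largest subunit and the one mutated in several blood cancers, had 2800, 2606 and 2974 against 1791, 1936 and 3494. Treated arrays 1 and 2 lay below every control and treated array 3 above them all, so the change of -0.28 ± 0.16 (adjusted p = 0.217) did not pass. It was past the threshold and lower without dexamethasone replicate 3, without replicate 3, with the mean of its probe sets and with hybridization control scaling. Its other probe set fell by 0.84 ± 0.18 (adjusted p = 0.00687), with 931.0, 1732 and 1776 in treated cultures below all controls (2525, 2418 and 2710). Sf3b2 likewise did not pass on its brightest probe set (-0.28 ± 0.12, adjusted p = 0.0994) and fell on the other (-0.68 ± 0.14, adjusted p = 0.00586). The brightest one was lower past the threshold with hybridization control scaling. The mean of the gene's probe sets was also lower past the threshold in the alternative that used it. Sf3b3, Sf3b5 and Sf3b6 did not pass, at -0.32, 0.18 and -0.24. Sf3b3 and Sf3b6 were lower past the threshold with hybridization control scaling, and Sf3b3 also without dexamethasone replicate 3.

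The class of tri-snRNP and other Prp genes, matched by symbol, includes U1-associated factors and a kinase. It gave 2 fallers of 13, or 15.4%, and 11 did not pass. This share is near the 21.4% of all genes that fell, while the median of the class was -0.22 against -0.04 and 84.6% against 53.3% had a fitted change below 0. Prpf8, the scaffold of the active centre, had 2186, 2079 and 1971 in controls and 2454, 1909 and 2158 with dexamethasone. The groups overlapped (0.06 ± 0.12, adjusted p = 0.733) and the 95% interval ran from -0.21 to 0.33. Snrnp200, the helicase that unwinds U4 from U6, was at -0.12 ± 0.16 (95% interval -0.49 to 0.25) and Prpf6 at -0.14 ± 0.13 (-0.43 to 0.15). Snrnp40, of the U5 particle, was at -0.37 ± 0.19 and Snrnp27 at -0.25 ± 0.12, and both were lower past the threshold with hybridization control scaling. The fallers were Prpf19, the ubiquitin ligase of the activating complex (2065 ± 46 to 1562 ± 159, -0.41 ± 0.12, adjusted p = 0.0286), and Prpf38b (-0.55 ± 0.17, adjusted p = 0.0362). The call of Prpf19 was lost without replicate 2 or 3, with 75th percentile centring and without the intensity trend, and that of Prpf38b in 6 alternatives, among them the fits without replicate 1, without replicate 2 and without the replicate block. Prpf18 had the highest change of all 63 genes, 0.29 ± 0.16 (419.6 ± 15.2 and 518.8 ± 99.7, adjusted p = 0.191), and did not pass. The other Prp genes tested, Prpf3, Prpf38a, Prpf39, Prpf40b and Prpf4b, lay between -0.30 and -0.03. Prpf4b was lower past the threshold without dexamethasone replicate 3. Tri-snRNP proteins with other symbols were counted with the other spliceosome components. Of these, Eftud2 (-0.90 ± 0.13), Ppih (-0.97 ± 0.15) and Ddx23 (-0.38 ± 0.12) fell. Usp39 (-0.34 ± 0.14), Sart1 (-0.19 ± 0.14) and Txnl4a (0.02 ± 0.12) did not pass.

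Heterogeneous nuclear ribonucleoproteins matched by symbol fell in 15 of 16 cases, or 93.8%, with a median of -0.77. Those with other symbols were counted with the other splicing regulators. Among these, Ptbp1 (-0.76 ± 0.10) and Syncrip (-0.82 ± 0.19) fell, while Pcbp1 (0.29 ± 0.11) and Pcbp2 (0.27 ± 0.10) did not pass. Hnrnpd (AUF1), which also binds AU-rich elements and speeds mRNA decay, had 1608, 2143 and 1427 in controls and 785.7, 804.9 and 588.4 with dexamethasone. Every control lay well above every treated array, and the fall was 2.36-fold (-1.24 ± 0.13, adjusted p = 0.000155). Hnrnpm had 1579, 1211 and 1628 against 631.4, 587.8 and 831.4 (-1.11 ± 0.13, adjusted p = 0.000317). Hnrnpab had 5496, 4485 and 5744 against 2496, 2626 and 2297 (-1.08 ± 0.13, adjusted p = 0.000256). In all 3 genes the groups were clearly apart. Hnrnpa3, the brightest of the class, had 7635, 7542 and 7537 against 4286, 3909 and 4476 (-0.84 ± 0.10, adjusted p = 0.000220), and its 3 other probe sets also fell, among them 2 by 1.26 and 1.27. Hnrnpa1, the best studied hnRNP and an opponent of Srsf1 in splice site choice, went from 3344 ± 23 to 1733 ± 128 (-0.95 ± 0.11, adjusted p = 0.000241), and its 2 other probe sets fell by 0.60 and 0.78. Near-identical A and B family transcripts and processed copies may share probes, so single members of that family are less certain than the family.

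Hnrnpdl (-0.95 ± 0.14), Hnrnpa2b1 (-0.85 ± 0.12), Hnrnpr (-0.69 ± 0.12), Hnrnpl (-0.64 ± 0.11), Hnrnpa0 (-0.56 ± 0.10) and Hnrnpf (-0.53 ± 0.10) fell under every alternative in which they were tested. Hnrnpa2b1, a close relative of Hnrnpa1, had another, dimmer probe set that did not pass (-0.22 ± 0.19, adjusted p = 0.399). Hnrnph3 (-0.86 ± 0.23), Hnrnph1 (-0.61 ± 0.16) and Hnrnpul1 (-0.61 ± 0.14) fell, with calls lost without replicate 1, and for Hnrnph3 also without replicate 2. Hnrnph1 was among the 2 fallers, with Prpf38b, whose groups overlapped (4503, 3240 and 4360 against 2083, 2451 and 3492). Hnrnpu, a scaffold of nuclear RNA and chromatin, fell by 0.37 ± 0.11 (adjusted p = 0.0329), a call lost in 6 alternatives, among them the fits without replicate 1 and without replicate 2. Hnrnpc, which binds uridine tracts and measures RNA length, was the gene of this class that did not pass. It had 3348, 3372 and 3636 against 3205, 3114 and 3176 (-0.12 ± 0.10, 95% interval -0.36 to 0.11, adjusted p = 0.382). Its groups did not overlap but lay close together, and quantile normalization or hybridization control scaling brought it past the threshold, as lower.

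Other probe sets of the same genes gave 12 calls among 17 tested, against 21.2% of all 9520 probe sets that fell. Of the 12, 10 went with a fallen gene, 0 opposed one, and 2 were those of Sf3b1 and Sf3b2. Another 3, for Hnrnpa2b1, Sf3a1 and Hnrnpu, did not pass although the gene did. A further 9 probe sets carry a symbol of this kind together with another gene's and were not counted among the 65. Limma gave 7 of these as lower and 0 as higher, with 0 higher also at an unadjusted p of 0.05.

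Genes around these in the pathway, taken from 6 lists drawn from general knowledge, included many that fell and a few that rose. Over the lists together 174 genes were tested, 74 fell (42.5%, against 21.4% of all genes), 5 rose (2.87%, against 17.0%) and 95 did not pass, with a median of -0.35. Without replicate 2, 51 were called in place of 79. Among other splicing regulators, 22 of 39 (56.4%) fell and 1 rose (median -0.59). Sfpq, a paraspeckle protein, went from 1317 ± 124 to 370.2 ± 111 (-1.88 ± 0.20, adjusted p = 0.000133). Tra2a, an SR-like enhancer factor, fell by 1.61 ± 0.25 and Tardbp (TDP-43) by 1.58 ± 0.14. The riser past the adjusted threshold was Rbm47, an RNA-binding protein of epithelia, from 819.1 ± 85.5 to 1584 ± 206 (0.95 ± 0.14, adjusted p = 0.00109).

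Exon junction complex and mRNA export genes gave 14 fallers of 25 (56.0%) and 0 risers by limma, with 0 also at an unadjusted p of 0.05 (median -0.59). Nxt1, the partner of the export receptor, went from 1180 ± 162 to 234.4 ± 107 (-2.42 ± 0.24, adjusted p = 0.000114), Srrt, which links the cap to RNA processing, from 768.8 ± 46.9 to 167.3 ± 28.5 (-2.21 ± 0.16), and Alyref, an export adaptor, from 2660 ± 77 to 859.8 ± 55.1 (-1.63 ± 0.12). For snRNP assembly and import, 10 of 23 (43.5%) fell and 0 rose by limma, also 0 at an unadjusted p of 0.05 (median -0.41), led by Xpo1, the nuclear export receptor (1745 ± 80 to 447.9 ± 39.0, -1.96 ± 0.13, adjusted p = 9.9e-06), Fbl (-1.04 ± 0.15) and Nop56 (-0.88 ± 0.11). The last 2 are core proteins of box C/D particles, which modify ribosomal and spliceosomal RNA.

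Of the other spliceosome components, 16 of 55 fell and 3 rose (median -0.25), so that 29.1% fell, not far above the 21.4% of all genes. Ddx39b (UAP56), a helicase of early assembly and export, went from 3189 ± 92 to 1050 ± 138 (-1.61 ± 0.12, adjusted p = 1.8e-05), and the cyclophilin Ppie and the helicase Dhx9 fell by 1.24 ± 0.20 and 1.02 ± 0.16. Bud31, a component of the activated spliceosome, rose from 1847, 1714 and 1946 to 3425, 3168 and 5208 (1.07 ± 0.13, adjusted p = 0.000397). Rnpc3 (0.83 ± 0.26), a protein of the minor spliceosome, and Syf2 (0.50 ± 0.16) also rose, with calls lost with hybridization control scaling, with no filter, without replicate 3 and without dexamethasone replicate 3, and for Rnpc3 without replicate 2, for Syf2 without replicate 1 and without the intensity trend. Rnpc3 was dim, at 116.0, 100.3 and 126.4 in controls and 135.8, 207.6 and 295.6 with dexamethasone. The background level was 97.3 on control array 2 and 100.2 on treated array 1. SR protein kinases and phosphatases showed 7 fallers (50%) and 1 riser of 14 (median -0.30). Srpk1, the main cytoplasmic SR kinase, fell by 0.68 ± 0.17 and Dyrk2 by 0.83 ± 0.21, both calls lost without replicate 1, that of Dyrk2 also without replicate 2, and Ppp1r8, a nuclear phosphatase regulator, fell by 0.81 ± 0.15. Clk4, a nuclear SR kinase, rose by 0.60 ± 0.19 (adjusted p = 0.0347), a call lost in 5 alternatives, among them the fits without replicate 2, without replicate 3 and without dexamethasone replicate 3. In 3′ end processing 6 of 19 fell and 0 rose by limma, also 0 at an unadjusted p of 0.05 (median -0.17), a share of 31.6% fallers against 21.4% of all genes. Cpsf6 fell by 1.07 ± 0.17, Cpsf2 by 0.92 ± 0.14 and Rbbp6 by 0.65 ± 0.19, the last a call lost in 7 alternatives, each fit without 1 replicate pair and that without dexamethasone replicate 3 among them.

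**Figure D4:**
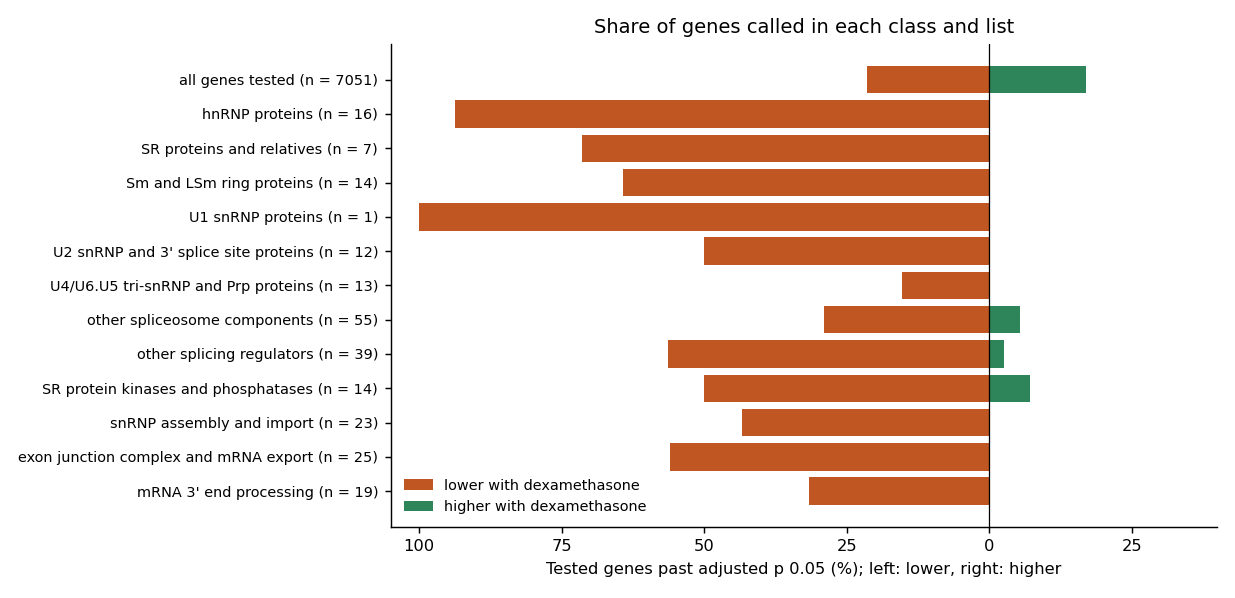
Percent of tested genes past an adjusted p of 0.05 in each class of splicing gene and each list of other pathway genes, lower to the left and higher to the right, with n tested genes beside each name. The hnRNP bar reaches 93.8% lower and the tri-snRNP and Prp bar 15.4%, against 21.4% lower and 17.0% higher for all genes. Classes hold only genes matched by symbol. Tri-snRNP proteins with other symbols are in the bar of other spliceosome components, and hnRNP proteins with other symbols in that of other splicing regulators.

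Upstream sequences were found for 62 of the 65 genes, 37 of them fallers. A gene was counted if any of its promoters held the match, while shares of all promoters are over single promoters. CCAAT on either strand occurred in the 250 bases before the start in 19 of the 37 (51.4%), in 43.5% of the 62, in 37.9% of 5936 tested genes and in 34.0% of all 33469 promoters in the table. The CCGGAAG core occurred in 25.8% of the 62, 21.6% of the 37 fallers and 17.1% of tested genes. AGAACA occurred in 11.3% of the 62 and 10.8% of the fallers, against 11.2% of tested genes and 17.5% of all promoters. The full glucocorticoid element, AGAACA and TGTTCT spaced by 3 bases, occurred in 0 of the 62 and in 4 of all promoters, and this says only that those letters are not in these windows. CACGTG (the E-box), GGGCGG (a GC box) and TATAAA occurred in 8.06%, 59.7% and 8.06% of the 62, in 8.11%, 59.5% and 13.5% of the fallers and in 9.18%, 62.7% and 6.60% of tested genes. The median GC content of the windows was 58.4% for these genes and 60.4% for tested genes.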

How the data were processed

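Total RNA of 6 AR42J cultures was hybridised to Rat 230A arrays. The authors deposited 1 linear signal intensity per probe set and array. The submitters' processing notes name GCOS and MAS5. Versions, scaling target and masks are not given in the sources used here. Checked on the values, every array had a trimmed mean near 500.

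Probe sets were named from GEO's platform annotation, updated through the NCBI gene table of GRCr8 by gene identifier (12748 probe sets) or accession (2). Of 15866 non-control probe sets, 12783 had 1 symbol, 312 several and 2771 none. The log2 of each signal was used, with 4 zeros replaced by 0.1. The 9520 probe sets whose mean log2 signal reached the 40th percentile (a signal of 147.6) were tested by limma (version 3.58.1, R 4.3.3) using lmFit and a trended eBayes, with replicate number as a block because the series' design text describes pairs of cultures, and Benjamini-Hochberg adjustment over all of them. Values after ± are SD (n = 3) for mean signals and limma's SE for log2 changes. The fit was tested on simulated data. A background level per array was the highest signal of 27 Bacillus subtilis control probe sets, and 68.3% to 79.5% of probe sets per array exceeded it. The number of arrays limits the precision.

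Genes given array by array were the 10 largest falls and rises past the threshold, the brightest tested gene of each class, and genes whose probe sets were called in opposite directions (0 found). In the other lists, up to 3 genes per direction with the largest changes past the threshold were named. Srsf5, Srsf11, Snrpa, Snrpn, Sf3b1, Hnrnph1, Hnrnpc, Bud31 and Rnpc3 were given array by array or in detail after their values were seen. Eftud2, Ppih, Ddx23, Usp39, Sart1, Txnl4a, Phf5a, Ptbp1, Syncrip, Pcbp1 and Pcbp2 were also named after their values were seen. Their calls were not followed singly across the alternatives. The genes and lists were chosen with earlier results of these data known. Alternatives changed the scaling, filter, block, trend, pseudocount, probe set rule and arrays used. Upstream sequences are RefSeq's on GRCr8.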

Additional observations from a re-analysis of the deposited data

How the results depend on the processing

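Across 14 alternatives the number of splicing genes that rose was 0 in each, and the number that fell ranged from 30 to 48 around 38. Of the 38 fallers, 24 kept their call in every alternative in which they were tested, among them all 10 with the largest falls, and 14 lost it in at least 1. Another 13 genes that did not pass were past the threshold in at least 1 alternative. Fits without a replicate pair rest on few arrays, and calls kept, lost or gained in them lean on the variance limma shares between probe sets. The median log2 change of the splicing genes was -0.40 with 75th percentile centring and -0.77 with hybridization control scaling, each of which moves a whole array by 1 amount, and otherwise between -0.54 and -0.50. With hybridization control scaling 48 genes fell against 34.5% of all genes, and with centring 31 against 15.8%. With no filter 34 fell, 33 of the 38 and Snrpa. A filter on the brighter group, chosen after seeing these data so that Snrpa would enter, gave 39 fallers of 65. It admits a gene through the group where it is high, so it adds no support. Leaving out each replicate pair gave 30 to 33 fallers, 7 to 10 other probe sets in accord with their gene (10 in the full fit), and 51 to 68 of the other pathway genes called in place of 79. Leaving out only dexamethasone replicate 3 gave 39 fallers, a median of -0.54, 11 other probe sets in accord and 83 other pathway genes called. Without the replicate block 38 fell (median -0.53), Prpf38b losing its call and Srsf11 gaining one, and 84 other pathway genes were called. Deviations of same-numbered arrays correlated at -0.0951, 0.112 and 0.211 over probe sets. Only those numbered 3 correlated best with each other, so the pairing rests on the series' design text and not on these values. Signals near background limit what can be said of Srsf10, Snrpa and Rnpc3, and MAS5 scaling hides a change common to all RNA.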

Other observations

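Treated array 3 was the highest of the treated arrays in 19 of the 38 fallers (50%), against 553 of the 1509 genes that fell over the whole array (36.6%). This array had the highest background level (115.9) and the highest beta-actin 3′ to 5′ ratio (1.69) of the 6. It also had the lowest treated signals of Krt19 (316.2, against 1388 and 1423) and Ttr (1348, against 7129 and 12962). On Sf3b1 it stood above every control. The part of these values in the splicing genes was not tested.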
